A study of Mus musculus with 14 samples.

Results

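The 39 genes described here carry the signalling of DNA damage and the joining of broken DNA ends, out of 20467 gene names in the deposited tables. They were taken by name from a list of damage kinases, mediators, end-processing factors, ligases and their partners. A member was kept in a tissue when its expression, summed over its coding-sequence rows, reached 0.5 FPKM in at least 1 condition. FPKM counts fragments scaled to the length of the transcript and to the mapped total of the library. This kept 31 members in cortex and 30 in hippocampus. All 30 of the hippocampus members were also kept in cortex, and 8 members were kept in neither tissue.

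The study sequenced total RNA from cortex and hippocampus of C57BL/6 mice aged 3 months. Control animals (Con, labelled WT) were compared with animals labelled TRF2-DCX-cre (TRF2). There TRF2 was depleted by Cre under the Dcx promoter, which is active in migrating and newborn neurons. The values are of bulk tissue and do not show in which cells Terf2 was lost. The labels describe 14 samples. They place 4 control and 3 TRF2 samples in cortex, and 3 control and 3 TRF2 samples in hippocampus. For 1 further TRF2 sample the labels contradict each other on the tissue. It was assigned to no group here, and it is unknown whether a pooled TRF2 value of the authors includes it. The hippocampus table also holds a condition named DKO, which no label describes, so its genotype and its number of samples are not known here. Each condition has 1 value per row, pooled by the authors over its samples. No spread between samples can therefore be given, the read depth is unknown, and the test throughout is the p and q of the authors' deposited table, made with Cuffdiff.

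A broken DNA end is bound by the Mre11-Rad50-Nbn complex or by the Ku pair Xrcc6-Xrcc5, and the kinases Atm, Atr and Prkdc (DNA-PKcs) then phosphorylate histone H2AX around it. Ku hands the ends to classical end joining, which needs no template and works in cells that do not divide, whereas resected ends go to homologous recombination, which uses a sister chromatid and is largely restricted to cycling cells. TRF2, a protein of the shelterin complex encoded by Terf2, keeps chromosome ends from activating Atm and from being fused by end joining. Neurons of adult cortex and hippocampus are postmitotic.

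Many genes of DNA replication and recombination are driven in cycling cells by E2F factors, so the 250 bases before the first listed start of each member were searched for the E2F words TTTCCCGC, TTTCGCGC, TTTGCCGC and TTTGGCGC on both strands. RefSeq promoters (GRCm38.p6) matched 31 of the 39 members. An E2F word was found in 5 of these 31 (16.1%), namely Chek2, Topbp1, Mdc1, Brca2 and Xrcc6, against 1.91% of 27025 promoters of the same length. Among members kept in cortex it was in 3 of 24 (12.5%), against 3.18% of the 9333 promoters of kept genes. The promoters of Brca2, a recombination gene below the expression minimum in every condition, and Mdc1, a signalling gene above it, are shown because both hold the word TTTCCCGC, which lies on the minus strand in Brca2 and on the plus strand in Mdc1. Capitals mark the word.
Brca2, chr5:150522371-150522620, plus strand: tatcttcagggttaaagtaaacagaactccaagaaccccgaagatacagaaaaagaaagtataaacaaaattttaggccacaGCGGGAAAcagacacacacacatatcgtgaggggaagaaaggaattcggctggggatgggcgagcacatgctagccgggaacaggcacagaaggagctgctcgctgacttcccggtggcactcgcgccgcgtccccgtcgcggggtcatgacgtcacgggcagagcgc
Mdc1, chr17:35841248-35841497, plus strand: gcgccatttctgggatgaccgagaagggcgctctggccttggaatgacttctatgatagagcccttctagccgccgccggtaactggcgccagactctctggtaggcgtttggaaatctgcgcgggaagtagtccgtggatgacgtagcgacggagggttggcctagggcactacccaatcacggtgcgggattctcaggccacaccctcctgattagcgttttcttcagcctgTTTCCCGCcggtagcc
In control cortex the 5 members with a word had a median of 1.37 FPKM (range 0.0875 to 2.66) and the 26 without one a median of 1.53 FPKM (range 0.17 to 9.53). The ranges overlapped, and in control hippocampus the medians were 1.36 and 1.69 FPKM. A link between the word and the level was not tested. The searched bases had a median share of G and C of 55.6% in matched members and 52% over all promoters. The part of this in the shares of promoters with a word was not tested. The 8 unmatched members, Prkdc, H2afx, Rif1, Rad50, Nbn, Rbbp8, Fancd2 and Wrn, were not searched. They include H2afx at 11.1 FPKM, Nbn at 3.59 FPKM and Rif1 at 3.29 FPKM in control cortex. A word in a promoter is a match of letters and not a bound site. Among kept members the ETS word CCGGAAGT was in 3 of 24 promoters (12.5%, against 5.71% of promoters of kept genes), the CCAAT box in 10 (41.7% against 36.1%) and the palindromic NRF1 word in 1 (4.17% against 1.67%).

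Most members were expressed at low levels. Their median was 1.57 FPKM in control cortex and 1.68 FPKM in control hippocampus. Among kept members it was 2.19 and 2.13 FPKM, against 4.22 and 4.21 FPKM over all 12335 and 12739 genes kept by the same rule. In control cortex 5 members reached 5 FPKM, namely H2afx, Parp1, Rnf8, Rpa1 and Rnf168, and the same 5 did so in control hippocampus. The highest value of any member was 17.9 FPKM for Parp1 in DKO hippocampus. The 8 members kept in neither tissue were Blm, Brca1, Brca2, Chek1, Chek2, Fancd2, Palb2 and Polq, most of them genes of recombination, checkpoint and replication repair. Just inside the minimum was Rbbp8 at 0.507 FPKM in TRF2 cortex, and just outside was Blm at 0.457 FPKM in control cortex. A list of 14 genes of dividing cells had a median of 0.62 FPKM in control cortex and 0.49 FPKM in control hippocampus.

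**Figure D1:**
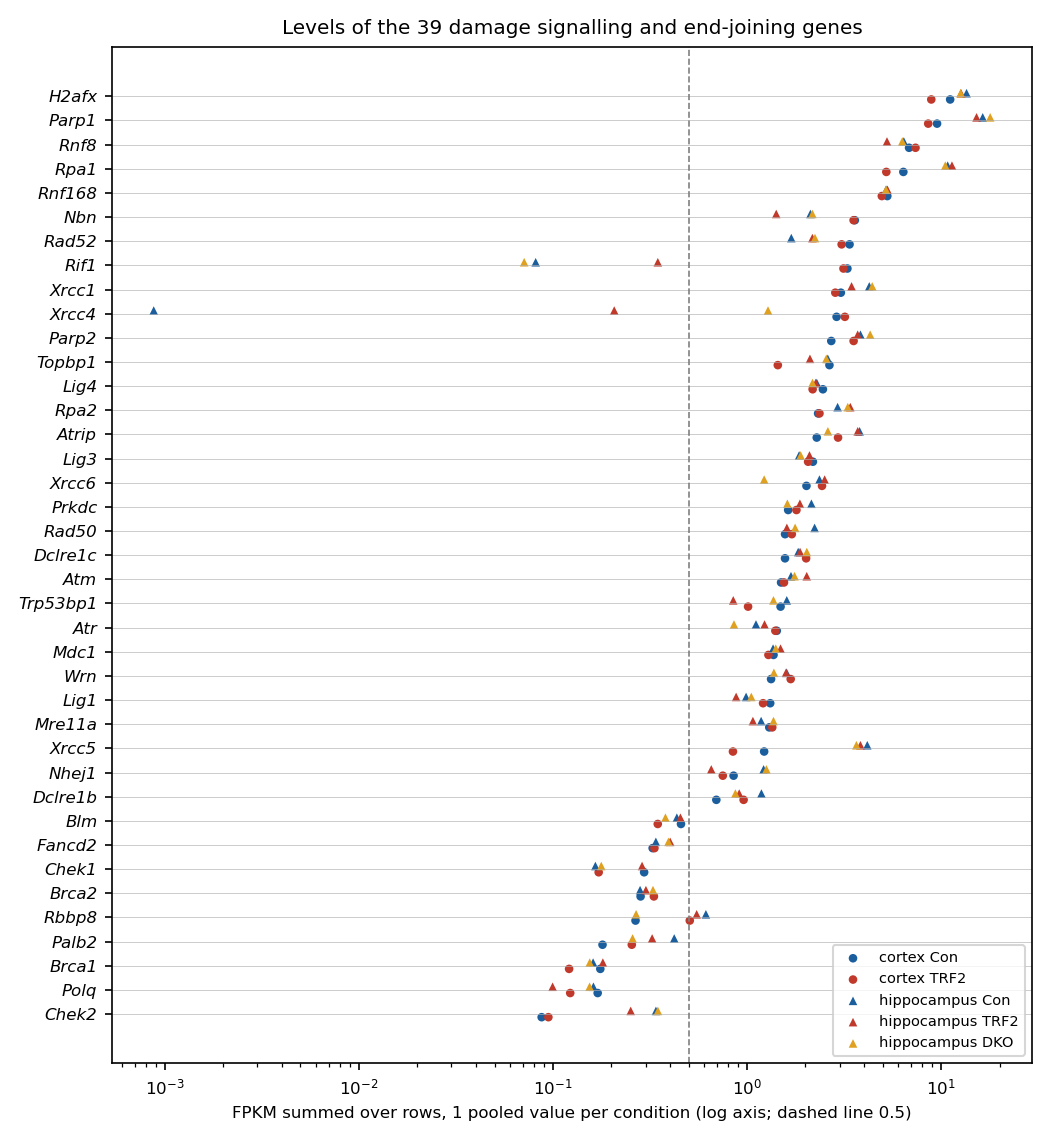
Expression of the 39 members in each condition, as FPKM summed over rows on a log axis, with circles for cortex, triangles for hippocampus and a dashed line at 0.5 FPKM. H2afx and Parp1 stand at the top, the 8 members below 0.5 in every condition at the bottom, and Rif1 and Xrcc4 are the members whose hippocampus and cortex symbols lie farthest apart.

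Terf2 itself, at chr8:107069402-107096685 of mm10, was measured first as the targeted gene. Its summed level was 3.59 FPKM in control and 0.202 FPKM in TRF2 cortex, which is 94.4% lower. In hippocampus it was 2.01 FPKM in control, 0.883 FPKM in TRF2 (56.1% lower) and 0.753 FPKM in DKO (62.6% lower). Its main cortex row had a p of 0.105 and a q of 0.576 in the authors' deposited table, and its hippocampus rows were not tested there. Markers of other cells differed between the conditions as well. In cortex all 6 choroid plexus markers were lower in TRF2 (summed 138 and 40.8 FPKM), and their leading gene Ttr was called. Of the 8 general neuronal markers 5 were lower and 3 higher in TRF2 cortex, 0 called, and their sums were 1304 and 1333 FPKM. The 5 kept striatal markers were higher (summed 45.1 and 59.4 FPKM) and 6 of 8 oligodendrocyte markers lower (781 and 708 FPKM) in TRF2 cortex, 0 of them called. In TRF2 hippocampus all 7 dentate granule markers were lower, 5 of them called (summed 90.8 and 52.2 FPKM), all 6 choroid plexus markers (315 and 538 FPKM) and all 7 meningeal markers (197 and 310 FPKM) were higher, with 1 meningeal marker called. In DKO hippocampus all 7 dentate markers (62.2 FPKM) and all 6 choroid plexus markers (21.7 FPKM) were lower than in control, 3 of each called, and 7 of 8 microglial markers were higher (67.5 and 77.3 FPKM), 0 called. Meningeal markers were higher in DKO as well, 6 of 7 (197 and 319 FPKM), with Ptgds called. The control sums of the meningeal and choroid plexus lists were mostly 1 gene each. Ptgds was at 165, 265 and 283 FPKM in control, TRF2 and DKO hippocampus. Ttr was at 264, 472 and 5.52 FPKM there, and at 93.3 and 1.15 FPKM in control and TRF2 cortex. Median log2 ratios to control were 0.62 and 0.47 for meningeal markers in TRF2 and DKO hippocampus. They were 0.62 and -2.50 for choroid plexus markers there, and -2.07 in TRF2 cortex. The 6 thalamic markers had no shared direction against control, with 3 higher and 3 lower in TRF2 and 2 higher and 4 lower in DKO. Only Zic1 among them was called, higher in both conditions, at 2.12 FPKM in control, 4.51 FPKM in TRF2 and 4.69 FPKM in DKO (q = 0.0301 for each in the authors' deposited table). The part of these differences in the members' values was not tested. In such bulk tissue, fewer cells of a type and less RNA per cell cannot be told apart.

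No member passed the test in cortex. The authors tested 15 of the 39 members in TRF2 against control cortex, and 0 had a q of 0.05 or less in the authors' deposited table, where 0.324% of the 8643 tested genes did. The smallest q of a member was 0.412, for H2afx, in the authors' deposited table. The tests behind the cortex q of the authors' deposited table are not known here: a Benjamini-Hochberg adjustment over its 9536 tested rows differs from it by up to 0.335 and gives members a smallest value of 0.727. By unadjusted p below 0.05 the authors' deposited table held 1 of the 15 members (6.67%), against 6.58% of tested genes. Of the 31 kept members 17 were lower and 14 higher in TRF2 cortex, and 54.8% of all kept genes were lower. Their median log2 ratio was -0.02, and that of all kept genes was -0.03. Only Rbbp8 was at least 1.5-fold higher (background 5.64%), a gene kept only through its TRF2 value and so chosen as higher by the minimum itself, and only Topbp1 at least 1.5-fold lower (background 6.26%).

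The hippocampus of TRF2 animals likewise held no called member. Of 18 members tested, 0 passed a q of 0.05 in the authors' deposited table, with a background of 0.184%. An unadjusted p below 0.05 in the authors' deposited table was reached by Rad50, 1 of 18 (5.56%, against 5.2% of tested genes). Among the 30 kept members 19 were lower and 11 higher, a median log2 ratio of -0.07 beside 0.00 over all kept genes, of which 49% were lower. Trp53bp1, Nhej1 and Nbn were at least 1.5-fold lower (background 7.05%), and no member that reached 0.5 FPKM in either condition was at least 1.5-fold higher (background 8.28%). Xrcc4 was listed higher in TRF2, but both of its values lay below the minimum.

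In DKO against control hippocampus 19 members were tested and 0 were called in the authors' deposited table (background 0.204%). Prkdc was the 1 member with an unadjusted p below 0.05 in the authors' deposited table (5.26%, against 7.18% of tested genes). Kept members were lower in 16 and higher in 14 cases, with a median log2 ratio of -0.01 beside 0.02 over all kept genes, of which 47.5% were lower. Rbbp8 and Xrcc6 were at least 1.5-fold lower (background 6.04%). Xrcc4 was the 1 member at least 1.5-fold higher (background 8.55%), kept only through its DKO value and so chosen as higher by the minimum itself. This comparison and the TRF2 comparison share the control samples.

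Set directly against TRF2 hippocampus, DKO hippocampus had 0 called members of 19 tested in the authors' deposited table (background 0.153%), and 0 members with an unadjusted p below 0.05 (background 5.07%). Kept members were again lower in 16 and higher in 14 cases (background 48.4% lower), with medians of -0.02 for members and 0.01 for all kept genes. Here 4 members (13.3%) were at least 1.5-fold higher in DKO, against a background of 7.31%. They were Xrcc4, again kept only through DKO, and Nhej1, Trp53bp1 and Nbn. At least 1.5-fold lower were 2 members (6.67%), Rbbp8 and Xrcc6, against a background of 6.26%. None of these 6 had an unadjusted p below 0.05 where it was tested, and Xrcc4, Nhej1, Trp53bp1 and Rbbp8 were not tested. Nhej1, Trp53bp1 and Nbn were also the members at least 1.5-fold lower in TRF2 against control, through the same pooled TRF2 values. Rbbp8 and Xrcc6 were likewise those at least 1.5-fold lower in DKO against control, through the same pooled DKO values. These are therefore not separate observations.

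**Figure D2:**
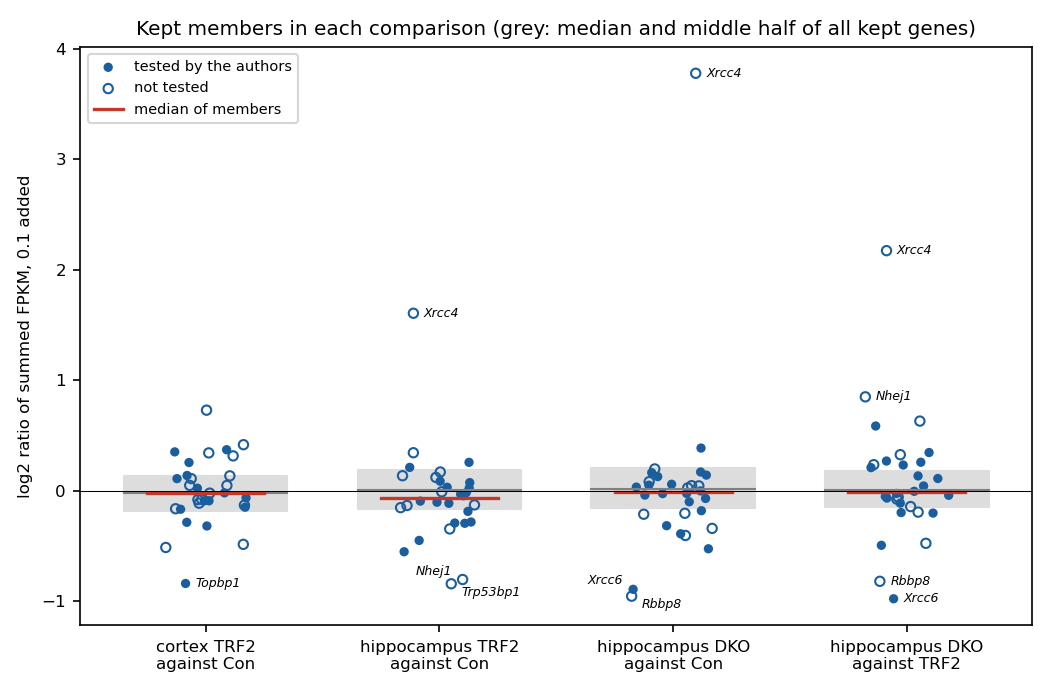
Log2 ratio of summed FPKM, with 0.1 FPKM added to both values, for each kept member in the 4 comparisons. Filled points were tested by the authors, open points were not, red lines are member medians, and the grey line and band are the median and middle part (25th to 75th percentile) of all kept genes. The member medians lie inside the grey bands, and Xrcc4 in hippocampus is the point farthest from 0, at a height that depends on the added 0.1 FPKM.

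Among the damage kinases and their partners, Atm, the kinase that answers breaks and uncapped telomeres, stood at 1.5 FPKM in control cortex and 1.55 FPKM in TRF2 cortex. In hippocampus Atm was at 1.68 FPKM in control, 2.03 FPKM in TRF2 and 1.76 FPKM in DKO. The log2 ratio of Atm in TRF2 hippocampus was 0.27 (95% interval -0.04 to 0.57), with p = 0.083 and q = 0.886 in the authors' deposited table. DKO against TRF2 gave -0.21 for Atm, with p = 0.144 in the authors' deposited table. The control and DKO values of Atm thus lay close together with TRF2 above both, by less than the test could call. Intervals here and below are implied by the deposited p, taking the error as normal.

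Prkdc, the catalytic kinase of classical end joining, stood at 1.63 FPKM in control cortex and 1.8 FPKM in TRF2 cortex. In hippocampus it was at 2.15 FPKM in control, 1.87 FPKM in TRF2 and 1.61 FPKM in DKO. DKO against control gave Prkdc a log2 ratio of -0.41 (95% interval -0.75 to -0.08) with p = 0.0159 in the authors' deposited table, and the q there was 0.734. It was the smallest p of any member in the 4 comparisons. Atrip, the partner that brings Atr to single-stranded DNA, stood at 2.29 and 2.94 FPKM in cortex and at 3.80, 3.72 and 2.61 FPKM in control, TRF2 and DKO hippocampus. For Atrip the DKO against control log2 ratio was -0.54 (95% interval -1.30 to 0.22), p = 0.161 and q = 0.886 in the authors' deposited table. Atrip overlaps Trex1 on the same strand and shares its locus in the tables, so reads may be split between them. Atr was not tested, and its values were 1.42 and 1.40 FPKM in cortex and 1.11, 1.23 and 0.857 FPKM in the 3 hippocampus conditions.

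Topbp1, which activates Atr, had the lowest cortex ratio of the members. It stood at 2.66 FPKM in control cortex and 1.44 FPKM in TRF2 cortex, a log2 ratio of -0.88 with a 95% interval of -2.63 to 0.86 and p = 0.32 and q = 0.742 in the authors' deposited table. The interval covers both a large fall and a rise, so the size of this difference is not resolved. In hippocampus Topbp1 was at 2.61, 2.11 and 2.56 FPKM in control, TRF2 and DKO, and the TRF2 ratio of -0.31 had p = 0.181 and q = 0.886 in the authors' deposited table. Chek1 and Chek2, the effector kinases below Atr and Atm, lay between 0.0875 and 0.347 FPKM in all 5 conditions and were not tested. Of the 5 kept genes of this group, 4 were lower in DKO than in control hippocampus, with a median log2 ratio of -0.38 and 0 of 4 tested called. The group was split 3 higher and 2 lower in TRF2 cortex, and 2 higher and 3 lower in TRF2 hippocampus.

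H2afx encodes the histone variant H2AX, whose phosphorylated form marks breaks and uncapped telomeres. It stood at 11.1 FPKM in control cortex and 8.90 FPKM in TRF2 cortex, a log2 ratio of -0.32 with an SE of 0.153 and a 95% interval of -0.62 to -0.02. This was the only member of the cortex comparison with an unadjusted p below 0.05 (p = 0.0347, q = 0.412 in the authors' deposited table). In hippocampus H2afx was at 13.5, 12.7 and 12.6 FPKM in control, TRF2 and DKO, and its 95% intervals in all 3 comparisons stayed within 1.5-fold. The values concern the transcript and not the phosphorylated protein.

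Trp53bp1 (53BP1), which protects ends from resection and is needed for fusion of uncapped telomeres, was lower in TRF2 than in control in both tissues. Its values were 1.49 and 1.01 FPKM in cortex (log2 ratio -0.56) and 1.6, 0.849 and 1.37 FPKM in control, TRF2 and DKO hippocampus (log2 ratio -0.92 for TRF2 against control). The DKO value lay between those of control and TRF2, with a log2 ratio of 0.69 against TRF2. Both rows of Trp53bp1 were left untested by the authors, so these ratios have no error. Exons of Tubgcp4 on the other strand overlap Trp53bp1 over up to 1873 bases.

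The ubiquitin ligases that act between H2AX and Trp53bp1 were among the more expressed members. Rnf8 was at 6.84 and 7.38 FPKM in cortex and at 6.43, 5.26 and 6.31 FPKM in control, TRF2 and DKO hippocampus. The TRF2 hippocampus ratio of Rnf8 was -0.29 with p = 0.129 and q = 0.886, and DKO against TRF2 gave 0.26 with p = 0.146, both in the authors' deposited table. Rnf168 was the steadiest member in the files, at 5.28 and 4.95 FPKM in cortex and 5.21, 5.29 and 5.2 FPKM in hippocampus, with 95% intervals within 1.5-fold in all 4 comparisons. Mdc1, the scaffold that reads phosphorylated H2AX, ranged from 1.29 to 1.49 FPKM over the 5 conditions and was not tested. Rif1, which acts with Trp53bp1 against resection, was at 3.29 and 3.14 FPKM in cortex, and its cortex log2 ratio of -0.07 had the narrowest interval of the 15 tested members there. In the cortex 5 of the 6 genes of this group were lower in TRF2, with a median log2 ratio of -0.09.

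The Mre11-Rad50-Nbn complex, which senses ends and recruits Atm, was measured through all 3 of its genes. Rad50 was at 1.57 and 1.70 FPKM in cortex and at 2.23, 1.6 and 1.77 FPKM in control, TRF2 and DKO hippocampus. Its TRF2 hippocampus log2 ratio was -0.47 (95% interval -0.87 to -0.08), with p = 0.0197 and q = 0.779 in the authors' deposited table. DKO against control gave Rad50 -0.33 (95% interval -0.70 to 0.03) with p = 0.0713 and q = 0.886 in the authors' deposited table. Both conditions lay below the control they share, and neither passed the adjusted test.

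Nbn was at 3.59 and 3.54 FPKM in cortex and at 2.12, 1.41 and 2.17 FPKM in the hippocampus conditions. Its TRF2 hippocampus ratio of -0.59 had a 95% interval of -2.45 to 1.27 and p = 0.537 in the authors' deposited table. Mre11a was at 1.30 and 1.35 FPKM in cortex and 1.18, 1.07 and 1.37 FPKM in hippocampus, and was not tested. In TRF2 hippocampus, then, the 3 genes had log2 ratios of -0.14, -0.47 and -0.59 for Mre11a, Rad50 and Nbn, and 0 of the 2 tested were called. In TRF2 cortex the same genes had ratios of 0.05, 0.12 and -0.02.

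Rbbp8 (CtIP), which starts resection, was near the minimum throughout, at 0.266 and 0.507 FPKM in cortex and 0.614, 0.55 and 0.268 FPKM in control, TRF2 and DKO hippocampus. It passed the minimum in cortex only through the TRF2 value, and in hippocampus through control and TRF2. Its log2 ratios of 0.93 in TRF2 cortex and -1.19 in DKO against control hippocampus are untested, and exons of another gene overlap it on the other strand. Dclre1b (Apollo), a nuclease that TRF2 recruits to telomeres, was at 0.695 and 0.96 FPKM in cortex (log2 ratio 0.47) and at 1.19, 0.912 and 0.871 FPKM in control, TRF2 and DKO hippocampus (-0.38 and -0.45 against control). The summed cortex and hippocampus ratios of Dclre1b thus had opposite signs, and no row of it was tested. Its 2 rows each moved the same way in both tissues. From control to TRF2, 1 row rose, from 0.372 to 0.683 FPKM in cortex and from 0 to 0.721 FPKM in hippocampus. The other row fell, from 0.323 to 0.277 FPKM in cortex and from 1.19 to 0.191 FPKM in hippocampus.

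Rpa1 and Rpa2 encode subunits of the protein that coats single-stranded DNA. Rpa1 stood at 6.39 FPKM in control cortex and 5.22 FPKM in TRF2 cortex, a log2 ratio of -0.29 (95% interval -0.78 to 0.20) with p = 0.243 and q = 0.698 in the authors' deposited table. In hippocampus Rpa1 was at 10.8, 11.4 and 10.5 FPKM in control, TRF2 and DKO. Rpa2 ranged from 2.32 to 2.36 FPKM in cortex and from 2.93 to 3.41 FPKM in hippocampus. Over the 7 genes of end sensing and resection, 5 were lower in TRF2 hippocampus (median log2 ratio -0.16) and 5 were higher in TRF2 cortex (median 0.05).

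The recombination genes were the lowest group. Brca1, Brca2, Palb2 and Fancd2 lay between 0.121 and 0.422 FPKM in every condition. Rad52, a strand-annealing protein, was the 1 kept gene among the 5, at 3.37 and 3.07 FPKM in cortex and 1.69, 2.17 and 2.24 FPKM in control, TRF2 and DKO hippocampus. A single row of Rad52 was tested in DKO against control, at 0.149 and 1.79 FPKM, a log2 ratio of 3.59 (p = 0.0534, q = 0.886 in the authors' deposited table). With both conditions added, that row held 49.4% of the gene's expression. It held 0.149 of 1.69 FPKM in control and 1.79 of 2.24 FPKM in DKO. Over all 4 rows of Rad52 the log2 ratio was 0.41. A single row and the sum can thus give very unlike ratios for a gene with several rows, and 9 of the 39 members have more than 1. The RecQ helicases act in recombination and at telomeres. Of these, Wrn was at 1.33 and 1.68 FPKM in cortex and 1.6, 1.59 and 1.38 FPKM in hippocampus, and Blm lay between 0.347 and 0.457 FPKM.

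In classical end joining, Xrcc6 (Ku70) was at 2.02 and 2.43 FPKM in cortex, a log2 ratio of 0.27 (p = 0.245, q = 0.699 in the authors' deposited table). Its hippocampus values were 2.36 FPKM in control, 2.51 FPKM in TRF2 and 1.23 FPKM in DKO. DKO against control gave a log2 ratio of -0.95 (95% interval -2.08 to 0.18; p = 0.101 and q = 0.886 in the authors' deposited table). DKO against TRF2 gave -1.04 (95% interval -2.19 to 0.12; p = 0.0796 and q = 0.886 in the authors' deposited table). The DKO value of Xrcc6 was thus the low one of the 3, with an error too wide for a call. Its Ku partner Xrcc5 (Ku80) was at 1.23 and 0.846 FPKM in cortex (log2 ratio -0.53, not tested) and at 4.17, 3.84 and 3.66 FPKM in hippocampus.

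Nhej1 (XLF), a ligation partner, was at 0.853 and 0.75 FPKM in cortex and 1.22, 0.654 and 1.26 FPKM in control, TRF2 and DKO hippocampus. The TRF2 hippocampus value was the low one, with untested log2 ratios of -0.90 for TRF2 against control and 0.94 for DKO against TRF2. Xrcc4, the scaffold of the ligase, was at 2.89 and 3.19 FPKM in cortex, with an interval for its log2 ratio of 0.14 that spanned 0. In hippocampus Xrcc4 was listed at 0.000877, 0.207 and 1.28 FPKM in control, TRF2 and DKO, and was kept there only through the DKO value. The size of the fold of Xrcc4 against control hippocampus is not given, since the control value is close to 0 and the authors did not test its row. Lig4, the ligase itself, ranged from 2.17 to 2.46 FPKM over the 5 conditions, with 95% intervals within 1.5-fold in all 4 comparisons. Dclre1c (Artemis), which opens hairpin ends, was at 1.57 and 2.02 FPKM in cortex and between 1.84 and 2.03 FPKM in hippocampus.

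The genes of single-strand break repair and alternative end joining include the most expressed hippocampus member. Parp1, the enzyme that marks breaks with poly(ADP-ribose), was at 9.53 and 8.58 FPKM in cortex and 16.4, 15.2 and 17.9 FPKM in control, TRF2 and DKO hippocampus. Its DKO against TRF2 ratio was 0.23 (95% interval -0.01 to 0.47), with p = 0.0554 and q = 0.886 in the authors' deposited table. Parp2 stood at 2.72 FPKM in control cortex and 3.54 FPKM in TRF2 cortex, a log2 ratio of 0.38 (95% interval -0.06 to 0.82), with p = 0.0896 and q = 0.556 in the authors' deposited table. In hippocampus Parp2 was at 3.84, 3.72 and 4.31 FPKM.

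Xrcc1, the scaffold of single-strand break repair, was at 3.04 and 2.85 FPKM in cortex and 4.26, 3.46 and 4.42 FPKM in control, TRF2 and DKO hippocampus. The TRF2 value of Xrcc1 in hippocampus was the low one of the 3. Its ratio to control was -0.30 (p = 0.16, q = 0.886 in the authors' deposited table), and DKO against TRF2 gave 0.35 (p = 0.079, q = 0.886 in the authors' deposited table). Lig1 ranged from 0.879 to 1.32 FPKM and Lig3 from 1.86 to 2.19 FPKM, and exons of Rffl overlap Lig3 on the other strand over up to 1826 bases. Polq, the polymerase of alternative end joining, stayed between 0.0996 and 0.17 FPKM. All 5 kept genes of this group were higher in DKO than in control hippocampus, by a median log2 ratio of 0.09, and 0 of the 3 tested were called. In both TRF2 comparisons 4 of the 5 were lower.

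The precision of these comparisons can be read from the intervals. In TRF2 cortex the 95% intervals of 8 of the 15 tested members lay wholly within a 1.5-fold change and 13 within a 2-fold change. In TRF2 hippocampus this held for 9 and 17 of 18 members, and in each of the DKO comparisons for 11 and 15 of 19. Errors implied by the deposited test statistic were wider, and left 1, 2, 3 and 1 members within 1.5-fold and 8, 10, 12 and 12 within 2-fold. Taken as normal, that statistic gives p = 0.273 for H2afx in cortex and p = 0.171 for Rad50 and p = 0.18 for Prkdc in hippocampus, against the smaller p values of the authors' deposited table quoted above. Among tested genes with a mean of 1 to 20 FPKM, the smallest log2 difference called was 0.38 in cortex, and 0.69, 0.59 and 0.60 in the hippocampus comparisons. The members left untested, 24 in cortex and 20 or 21 in the hippocampus comparisons, have no such limit.

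**Figure D3:**
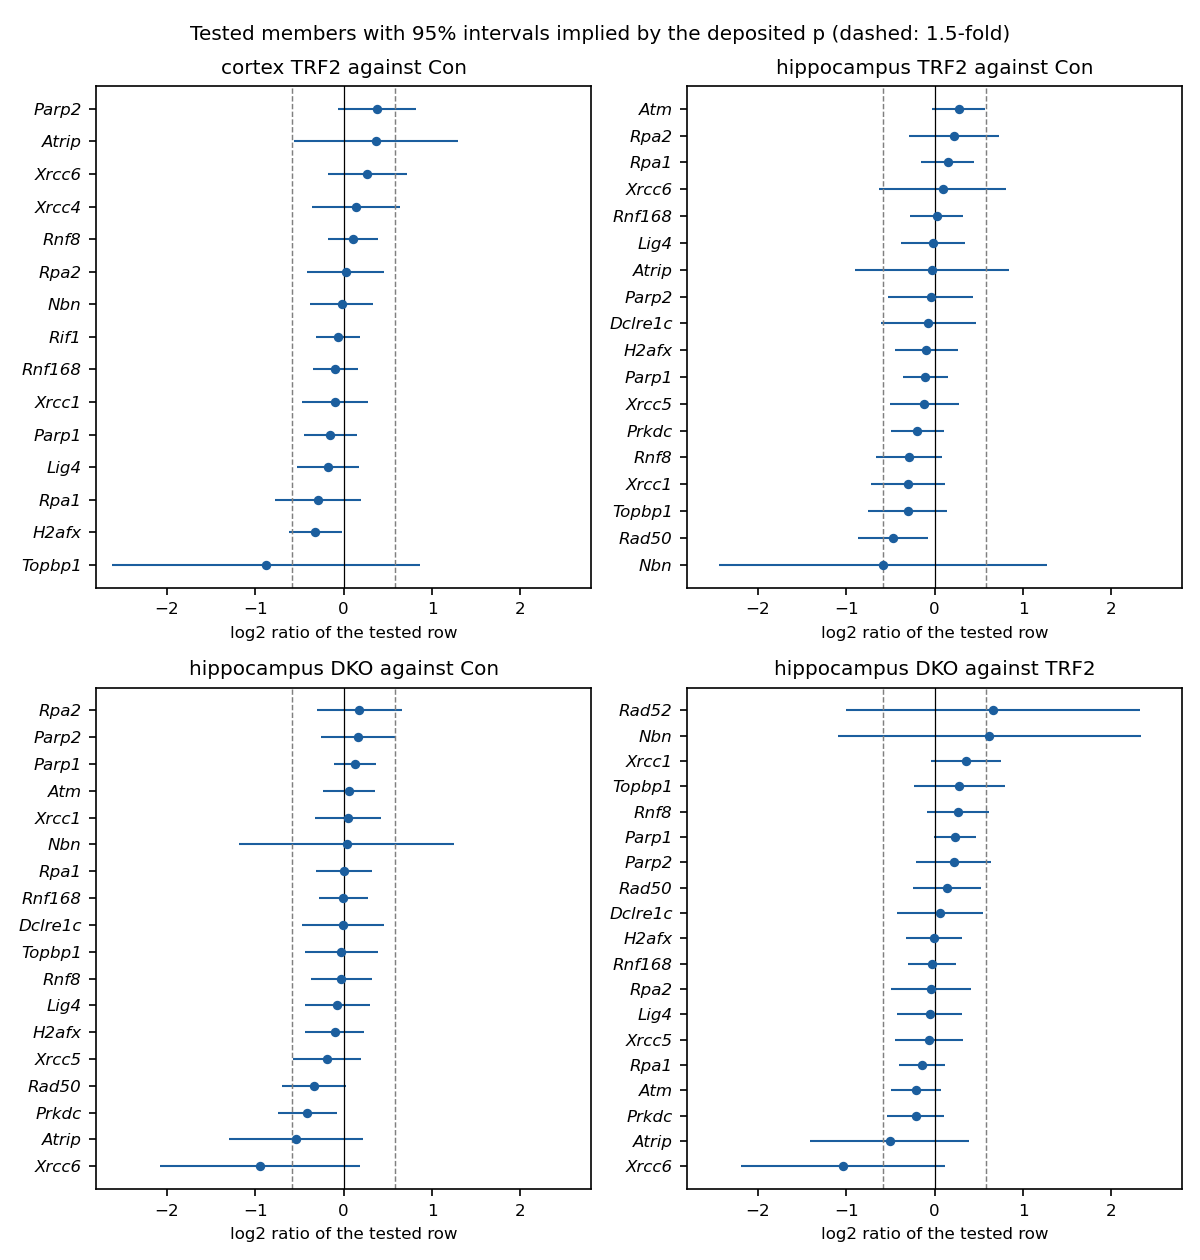
Log2 ratio of the tested row of each tested member with its 95% interval implied by the deposited p, one panel for each comparison, with dashed lines at 1.5-fold. Most intervals include 0, the exceptions being H2afx in cortex, Rad50 in TRF2 and Prkdc in DKO hippocampus. The row of Rad52 in DKO against control (log2 ratio 3.59) is off the scale and not drawn.

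The levels in control cortex and control hippocampus were also set side by side, with the limit that the tables were normalized separately. Of 31 members at 0.5 FPKM or more in either control tissue, 28 were within 2-fold of each other after adding 0.1 FPKM. The same held for 10511 of all 12618 genes at that minimum. Rif1 was at 3.29 FPKM in control cortex and at 0.0815, 0.347 and 0.0711 FPKM in control, TRF2 and DKO hippocampus. Xrcc4 showed the same gap, at 2.89 FPKM in control cortex and 0.000877 FPKM in control hippocampus. Both were at least 10-fold higher in control cortex with 0.1 FPKM added, as were 1.37% of the 12618 genes compared, and 0 members were at least 10-fold higher in control hippocampus (background 1.14%). Each has a single row, with the same locus in both tables (chr2:52072837-52122381 for Rif1 and chr13:89848914-90089608 for Xrcc4, mm10), and in hippocampus both rows were marked as not tested. Whether these are levels of the tissue or failed estimates was not tested. Xrcc5 was the 1 gene of these 31 more than 2-fold higher in control hippocampus on that scale, at 4.17 against 1.23 FPKM. Of all 12618 genes 1088 were at least 2-fold higher there. Across the 39 genes the log2 levels of the control tissues had a Pearson r of 0.51 and a Spearman rho of 0.72, and of 0.93 and 0.90 without Rif1 and Xrcc4. The points are genes of the same pooled libraries and not replicates.

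**Figure D4:**
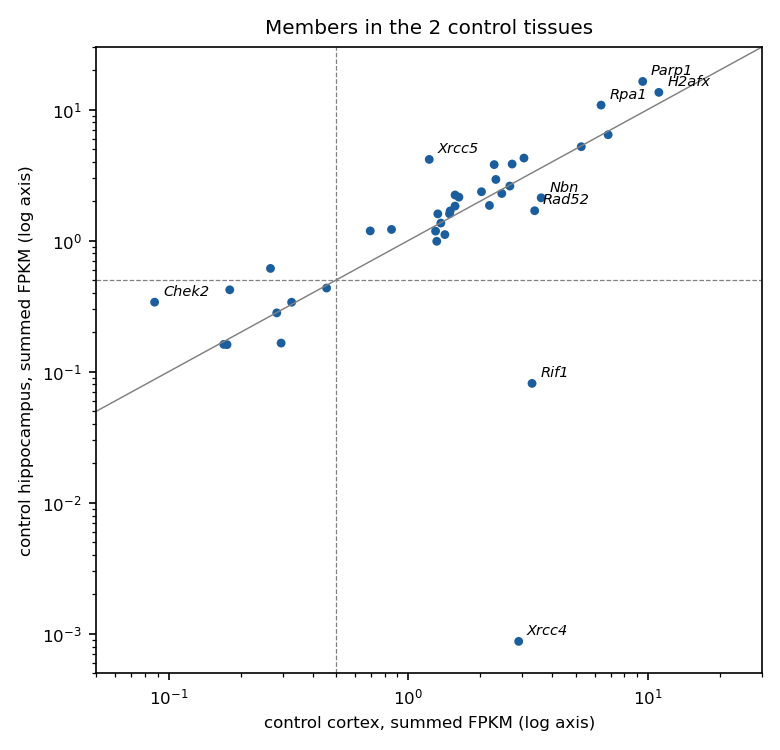
Summed FPKM of the 39 members in control cortex (x axis) and control hippocampus (y axis), both on log axes, with a line of equality and dashed lines at 0.5 FPKM. Most members lie near the line, Xrcc5 lies above it, and Rif1 and Xrcc4 lie far below it.

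Whether TRF2 depletion differed between the tissues was tested as the difference of the 2 log2 ratios, for the 12 members with the same row tested in both. Rpa1 was tested by the authors in both tissues but through different rows, and was left out. No member differed at an adjusted p of 0.05 (normal test with errors implied by the deposited p, Benjamini-Hochberg over 7357 rows), and 0.0272% of all rows did. Rnf8 came closest, with a difference of 0.40 (95% interval -0.07 to 0.87), a p of 0.0946 and an adjusted p of 0.907. Of the 30 members kept in both tissues, 10 were lower in TRF2 in both (33.3%, against 27.4% of all genes), and 5 were higher in both (16.7%, against 23.3%). The other 15 had opposite signs. Of these, 9 were higher in cortex and lower in hippocampus (30%, against 21.8% of all genes). The remaining 6 were lower in cortex and higher in hippocampus (20%, against 27.4%).

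Other genes of DNA repair and the checkpoint were read from 7 lists with 108 genes outside the members. Of these 50 were tested in TRF2 cortex, 59 in TRF2 hippocampus, 60 in DKO against control and 55 in DKO against TRF2, and 0 were called in any comparison of the authors' deposited table. An unadjusted p below 0.05 in the authors' deposited table was reached by 1, 1, 3 and 3 genes, which is 2%, 1.69%, 5% and 5.45% of those tested. The shares over all tested genes were 6.58%, 5.2%, 7.18% and 5.07%. These counts lie below or near the background, and the genes are given as values only. In cortex this was Wee1, a kinase that holds cells before mitosis, at 4.61 and 6.25 FPKM, for which the authors' deposited table gives p = 0.0129. In TRF2 hippocampus it was Babam1, a subunit of the Brca1-A complex, at 18.5 and 13.8 FPKM, for which the authors' deposited table gives p = 0.016.

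Trp53, the transcription factor p53 below Atm, was at 4.25, 4.35 and 2.26 FPKM in control, TRF2 and DKO hippocampus. The DKO value of Trp53 was the low one, with p = 0.0039 and q = 0.442 against control and p = 0.00345 and q = 0.429 against TRF2 in the authors' deposited table. Ercc3, a helicase of nucleotide excision repair, was at 5.83, 5.61 and 7.72 FPKM in the same order, with p = 0.00705 for DKO against control and p = 0.0033 for DKO against TRF2 in the authors' deposited table. Babam1 was the remaining gene of DKO against TRF2, at 13.8 and 18.3 FPKM with p = 0.0147 in the authors' deposited table. Ppm1d, a phosphatase that reverses damage signals, was at 4.37 and 3.22 FPKM in control and DKO (p = 0.0184 in the authors' deposited table). The medians of the 7 lists ranged from -0.12 to 0.24 in cortex and from -0.18 to 0.16 over the hippocampus comparisons. The list of genes of dividing cells summed to 26.2 and 25.9 FPKM in control and TRF2 cortex and to 26.1, 21.1 and 21.9 FPKM in control, TRF2 and DKO hippocampus.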

How the data were processed

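RNA was purified on RNeasy columns and NEBNext Ultra libraries were sequenced, per the labels' protocols. According to the submitters' processing notes, the tools were CASAVA 1.8, TopHat2, Cufflinks and Cuffdiff, with the build mm10; other versions: not given in the sources used here. Deposited values are FPKM, pooled by the authors to 1 value per condition and coding-sequence row, and depth is unknown. Rows also carry a statistic of the authors' test (a score), and the deposited p-value and the deposited q-value of that test. Counting is not stated to use strand, and 14 members have exons overlapped by a gene on the other strand (GENCODE M21).

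FPKM was summed over rows per gene, without a pseudocount unless stated. A gene was tested if a row carried a deposited test, and stood by its tested row of highest mean FPKM. It was called at a q of 0.05 or less. The SE is the size of the log2 ratio over the normal quantile of the deposited p. The labels name no animals, so p-values measure the spread between samples as the authors modelled it. Gene symbols that a spreadsheet had turned into dates (25 per tissue) were left out.

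Members and lists were chosen with earlier results of these data known. Named with full values were Terf2, the 5 members of smallest p and the 5 of largest log2 ratio (0.1 FPKM added) per comparison. Of the other repair lists, genes with p below 0.05 among the 2 of smallest p are named, and the rest are given as counts. Alternatives covered the q threshold, its recalculation, any tested row, a minimum fold, the pseudocount, the minimum FPKM, the tested row and centring. Scripts were tested on simulated data. Versions were Python 3.11.15, scipy 1.17.1, numpy 2.4.6, pandas 2.3.3 and, for figures, matplotlib 3.10.9.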

Additional observations from a re-analysis of the deposited data

How the results depend on the processing

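The counts of 0 called members held at a deposited q of 0.1, with q recomputed over each comparison alone, over any tested row and with a minimum fold of 1.5. With an unadjusted p under 0.05 the count was 1 in TRF2 cortex, 1 in TRF2 hippocampus, 1 in DKO against control and 0 in DKO against TRF2. The median log2 ratio of members moved by less than 0.1 under 6 alternatives in each of the 4 comparisons. No member differed between tissues with errors implied by the deposited statistic, and the minimum of 1 FPKM left the same 7357 rows.

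No paired analysis was possible because the deposited tables hold 1 pooled value per condition. Leaving out each sample in turn could not be fitted for the same reason. The tables therefore cannot show whether 1 sample set a value. Members under about 1 FPKM were mostly not tested, and neither were several above it. Untested members reached a summed level of 3.37 FPKM in the cortex comparison and 2.17 FPKM in TRF2 against control hippocampus. A difference in any untested member was not detectable here.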
